A study of Homo sapiens with 4 samples.

Results

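The genes examined here are the IGF binding proteins IGFBP2 to IGFBP7, the IGF receptors IGF1R and IGF2R, and the receptor substrates IRS1 and IRS2. These 10 genes were taken by symbol from the 60725 genes of the count table, and 8 of them had enough reads to be tested. PolyA RNA was sequenced from RPE1 SunTag cells, a derivative of the hTERT-RPE1 line of human retinal pigment epithelial origin that expresses the SunTag reporter system. All cells received 10 nM of siRNA and a second transfection 48 h later, and were harvested on day 5, 72 h after the second transfection. The 2 control libraries came from cells given Silencer Select Negative Control No. 2, called scramble in the labels, and the 2 TOP2B knockdown libraries from cells given an ON-TARGETplus SMARTpool against TOP2B. The knockdown rested on a single siRNA pool and the control on a single control siRNA, so effects of TOP2B loss and of these reagents cannot be told apart in these libraries.

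Insulin-like growth factors (IGFs) are secreted peptides that bind the receptor tyrosine kinase IGF1R, which then phosphorylates the docking proteins IRS1 and IRS2 and through them engages PI3K and AKT. The IGF binding proteins hold IGFs outside the cell, where they extend their lifetime and limit their access to the receptor, and secreted proteases release the ligand by cutting them. IGF2R has no kinase: it takes up IGF2 for degradation and carries lysosomal enzymes tagged with mannose 6-phosphate. Several binding proteins, among them IGFBP3, IGFBP5 and IGFBP7, are known for secretion by senescent cells.

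Of the 8 genes tested, IRS1 rose after TOP2B depletion and the other 7 did not pass the test. IRS1 was 1.66-fold higher, with a 95% interval from 1.38 to 2.00. Genes with an adjusted p below 0.05 in edgeR's quasi-likelihood test (Benjamini-Hochberg, over all 15356 genes tested) are termed called, which held for 10.8% of the tested genes, 6.66% higher and 4.18% lower. The single call among 8 members, or 12.5%, is close to that background. No member was called lower, none had an unadjusted p below 0.05 in that direction, and DESeq2 also called 1 higher and 0 lower. Over all 15356 tested genes, 2228 were higher and 1812 lower at an unadjusted p below 0.05 in edgeR. DESeq2 called 917 of them higher and 645 lower. The median log2 fold change of the tested members was 0.12, against -0.0029 over all tested genes. Both knockdown libraries lay outside the control range for 5 of the 8, as for 54.3% of all tested genes.

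The libraries held between 20310259 and 23887013 counts, so that 1 CPM (the TMM-scaled unit of counts relative to library size used throughout) rested on 20.2 to 23.9 reads. TOP2B itself had 154.9 and 143.5 CPM in control and 15.3 and 13.3 CPM in knockdown libraries. Of 8 markers of differentiated retinal pigment epithelium, MITF, OTX2, BEST1 and PMEL had enough reads to be tested and RPE65, TYR and TTR had 0 counts in every library. None of these 8 was called. Of the 5 leukocyte markers none reached the filter, with a summed level of 0.198 to 0.501 CPM. Of the 4 endothelial markers, PECAM1, VWF and KDR were tested and none was called. The 4 summed to 8.78 to 13.5 CPM, mostly KDR at 7.59 to 11.9 CPM. PECAM1 had 24 and 21 counts in control and 11 and 5 counts in knockdown libraries. Of the 5 mesenchymal markers, FN1 was called higher and TAGLN lower. Their summed level, 3212 and 2713 CPM in control and 5463 and 4479 CPM in knockdown libraries, was mostly FN1 (1915 and 1433 against 4166 and 3146 CPM), while VIM had 969.4 and 1019 against 937.6 and 1011 CPM. Of the 5 epithelial markers, none was called, and their sum was 1466 and 1786 CPM in control and 1135 and 1424 CPM in knockdown libraries. This sum was mostly KRT8 and KRT18, since EPCAM had 0 counts and CDH1 had 1 or 2 in each library. KRT8 and KRT18 had log2 fold changes of -0.35 and -0.39, while that of KRT7 was 0.65. The part of these levels in the values of IRS1 was not tested.

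**Figure D1:**
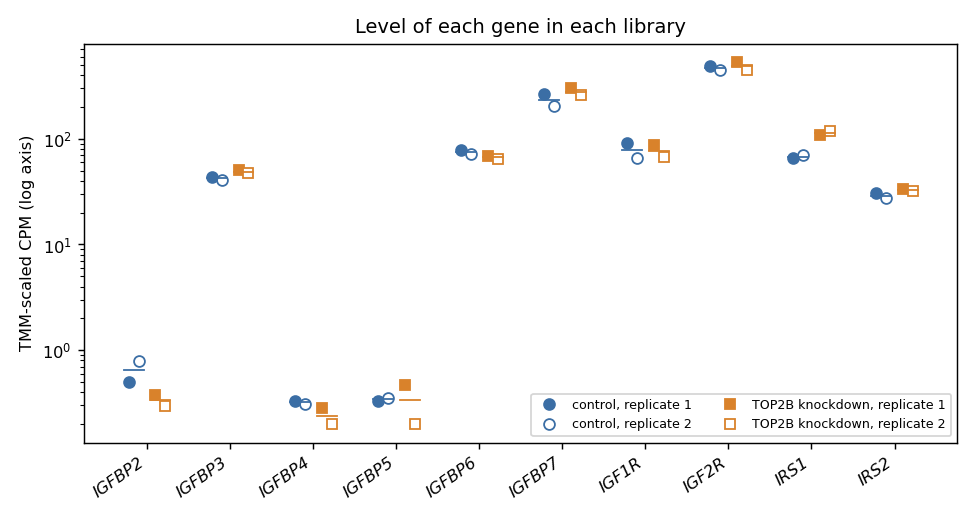
TMM-scaled CPM on a log axis for each of the 10 genes in the 2 control (circles) and 2 TOP2B knockdown libraries (squares), with replicate 1 filled, replicate 2 open and a short line at each group mean. IRS1 stands at 65.8 and 69.7 CPM in control and 107.6 and 117.6 CPM in knockdown libraries, while IGFBP2, IGFBP4 and IGFBP5 lie below 1 CPM.

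To compare genes of different length, CPM was divided by the kilobases of annotated exon. On this scale the control means ran from IGFBP7 (121.0 CPM per kb) and IGFBP6 (56.0) over IGF2R (20.5), IGFBP3 (9.24), IRS1 (6.76), IGF1R (5.66) and IRS2 (3.56) to IGFBP4 (0.145), IGFBP2 (0.136) and IGFBP5 (0.0530). The binding proteins thus held both ends of the order, with the receptors and substrates between them. Neighbours that were not separated by their libraries in control cells were IRS1 and IGF1R, with 6.57 and 6.96 against 6.59 and 4.74 CPM per kb, and IGFBP4 and IGFBP2. In knockdown cells IRS1 reached 10.7 and 11.7 CPM per kb, above IGF1R at 6.22 and 4.84 and within reach of IGFBP3 at 11.03 and 10.34. The annotated exons include those of rare isoforms, so a level per kb is a lower estimate for genes with many of them.

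Among the binding proteins, the most abundant was IGFBP7 (ENSG00000163453, chromosome 4 of GRCh38 from 57030773 to 57110385, minus strand), which binds IGFs weakly and is found in the matrix around vessels and epithelia. It had 263.3 and 203.9 CPM in control and 299.2 and 257.9 CPM in knockdown libraries. The groups overlapped, since control replicate 1 was above knockdown replicate 2. On the log2 scale it differed by 0.25 (standard error 0.16, adjusted p = 0.348, edgeR's quasi-likelihood test). Of its exon bases 18.3% are shared with POLR2B and the antisense gene IGFBP7-AS1, and reads of these genes cannot be told apart there since no source states whether strand was used in counting. The log2 fold change of IGFBP7 without 1 library ranged from 0.088 (without control replicate 2) to 0.45 (without control replicate 1).

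IGFBP6 (ENSG00000167779, chromosome 12 from 53097436 to 53102345, plus strand), the binding protein that prefers IGF2, had 78.7 and 71.9 CPM in control and 69.3 and 64.2 CPM in knockdown libraries. Both knockdown values were below both control values, by less than would pass the test. Its log2 fold change was -0.17 (standard error 0.12, adjusted p = 0.396, edgeR). IGFBP3 (ENSG00000146674, chromosome 7 from 45912245 to 45921874, minus strand), the main carrier of IGFs in serum, had 43.8 and 40.7 CPM in control and 50.4 and 47.3 CPM in knockdown libraries. Here both knockdown values were above the control values, again without passing the test. Its log2 fold change was 0.21 (standard error 0.12, adjusted p = 0.303, edgeR). For these 3 genes the 95% intervals reached from -0.099 to 0.61 for IGFBP7, from -0.44 to 0.091 for IGFBP6 and from -0.056 to 0.47 for IGFBP3 on the log2 scale.

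The remaining binding proteins had few reads. IGFBP2 (ENSG00000115457, chromosome 2 from 216632828 to 216664436, plus strand), a binding protein that also carries an integrin-binding motif, had 12 and 18 counts in control and 8 and 6 in knockdown libraries. Its log2 fold change of -0.92 had a standard error of 0.49 and did not pass (adjusted p = 0.277, edgeR), with an interval from -2.02 to 0.19. IGFBP2 passed the filter of 10 counts in 2 libraries only through the control group, where it was higher. The direction of its change is therefore not independent of that filter. IGFBP5 (ENSG00000115461, chromosome 2 from 216672105 to 216695549, minus strand), the neighbour of IGFBP2 that faces it tail to tail, had 8 and 8 counts in control and 10 and 4 in knockdown libraries. IGFBP4 (ENSG00000141753, chromosome 17 from 40443450 to 40457725, plus strand), the substrate of the protease PAPPA, had 8 and 7 counts in control and 6 and 4 in knockdown libraries. Neither reached the limit of 10 counts in 2 libraries, and at this depth a difference was not detectable for them. IGFBP1, of the same family but not among the 10 genes, had 3 and 1 counts in control and 0 in both knockdown libraries.

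Summed per kb, IGFBP1 to IGFBP7 amounted to 204.9 and 168.4 CPM per kb in control and 217.8 and 191.8 in knockdown libraries, and these overlapped. The share of IGFBP7 in this sum was 66.6% and 62.7% in control and 71.2% and 69.7% in knockdown libraries. The share of IGFBP6 was 28.5% and 31.7% in control and 23.6% and 24.9% in knockdown libraries. Both shares were therefore separated between the groups, in opposite directions, as parts of a single total. With 2 libraries against 2 the smallest two-sided p of an exact permutation test is 0.333, so these shares and the ratios below are given as values. The binding proteins as a list, with IGFBP1, IGFALS and IGFBPL1 added, had 4 of 9 genes tested, of which 0 were called by edgeR or DESeq2 and 0 had an unadjusted p below 0.05.

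**Figure D2:**
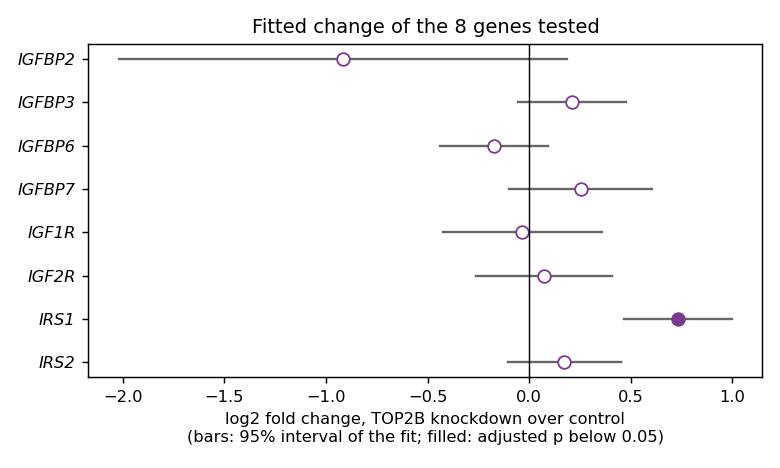
Fitted log2 fold change of TOP2B knockdown over control for the 8 tested genes, with the 95% interval of the edgeR fit as a bar and a filled point where the adjusted p is below 0.05. The interval of IRS1, from 0.47 to 1.00, lies above 0, and the other 7 intervals include 0.

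The receptors did not pass the test. IGF1R (ENSG00000140443, chromosome 15 from 98648539 to 98964530, plus strand), the signalling receptor for IGF1 and IGF2, spans 316.0 kb and is the longest of the 10 genes. It had 91.8 and 66.0 CPM in control and 86.8 and 67.4 CPM in knockdown libraries. Replicate 1 was above replicate 2 in either condition, and the groups overlapped. Its log2 fold change was -0.034 (standard error 0.18, adjusted p = 0.930, edgeR), with an interval from -0.42 to 0.36. The sign of this value turned without control replicate 1 (0.22) and without knockdown replicate 2 (0.15). IGF2R (ENSG00000197081, chromosome 6 from 159969082 to 160113507, plus strand) had 484.7 and 443.8 CPM in control and 531.2 and 444.3 CPM in knockdown libraries. Its lowest knockdown library stood between the control libraries, and the log2 fold change was 0.071 (standard error 0.15, adjusted p = 0.812, edgeR). Without knockdown replicate 1 it was -0.059.

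The insulin receptor INSR, which forms hybrid receptors with IGF1R, had 16.7 and 9.91 CPM in control and 22.8 and 16.1 CPM in knockdown libraries. The groups overlapped and the log2 fold change of 0.55 (standard error 0.24) did not pass (adjusted p = 0.186, edgeR). Its call turned on single libraries: the adjusted p was 0.00079 without control replicate 1 and 0.0056 without knockdown replicate 2, against 0.647 and 0.565 without control replicate 2 or knockdown replicate 1. It was also called without a filter on low counts (adjusted p = 0.0179, edgeR). Per kb, the ratio of IGF1R to INSR was 4.28 and 5.17 in control and 2.96 and 3.26 in knockdown libraries, lower in both. Of the ligands, IGF1 and INS had 0 counts in every library, and a count of 0 allows up to 3 counts, or 0.125 to 0.149 CPM. IGF2 had 6 and 9 counts in control and 3 in each knockdown library. Hence no ligand reached the limit for testing.

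IRS1 (ENSG00000169047, chromosome 2 from 226731312 to 226799820, minus strand) encodes the docking protein that passes the signal of IGF1R and INSR to PI3K. It had 1577 and 1589 counts in control and 2281 and 2372 counts in knockdown libraries, equal to 65.8 and 69.7 against 107.6 and 117.6 CPM. Control cells had a mean of 67.8 ± 2.73 CPM and TOP2B-depleted cells one of 112.6 ± 7.07 CPM (SD, n = 2). Both knockdown libraries were far above both control libraries, and the replicates of a group lay close together. On the log2 scale IRS1 rose by 0.73 (standard error 0.12, adjusted p = 0.00509, edgeR's quasi-likelihood test), larger than that of 93.6% of the tested genes. It ranged from 0.68 to 0.80 in the 4 fits without 1 library, with adjusted p between 0.00081 and 0.00971. None of its exon bases is shared with another annotated gene.

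IRS2 (ENSG00000185950, chromosome 13 from 109752695 to 109786583, minus strand), the related docking protein whose transcription is under FOXO control in several tissues, had 30.6 and 27.5 CPM in control and 33.2 and 32.3 CPM in knockdown libraries. Both knockdown values were above the control values, but the log2 fold change of 0.17 (standard error 0.12, adjusted p = 0.420, edgeR) did not pass. The 95% interval of IRS2, from -0.10 to 0.45 on the log2 scale, ended below that of IRS1, which began at 0.47; the difference between these genes was not tested. Within a library and per kb, IRS1 exceeded IRS2 by a ratio of 1.75 and 2.07 in control and of 2.64 and 2.96 in knockdown libraries. Summed, the substrates amounted to 10.3 and 10.3 CPM per kb in control and 14.8 and 15.7 in knockdown libraries. The ratio of IRS1 to IGF1R was 0.998 and 1.47 in control and 1.73 and 2.43 in knockdown libraries. In each of these quantities the groups did not overlap, and the knockdown libraries were the higher ones. IRS1 enters each of them, so they are not independent of its rise.

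**Figure D3:**
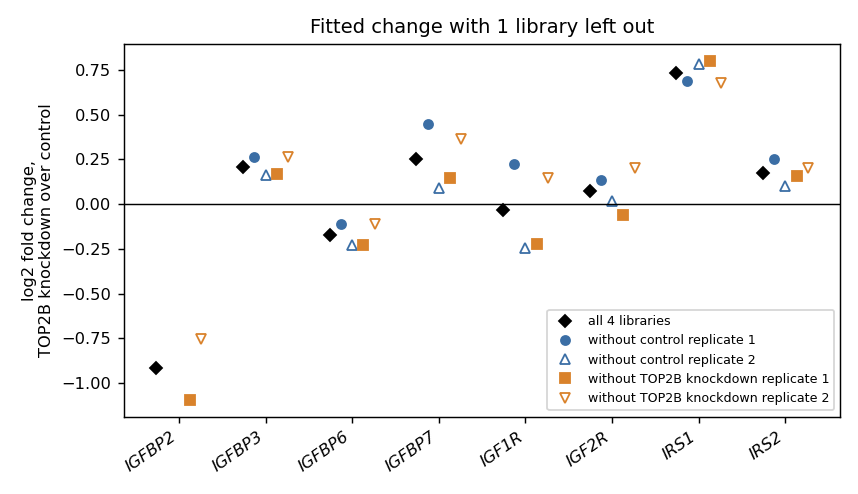
Log2 fold change of TOP2B knockdown over control for the 8 tested genes with all 4 libraries (diamonds) and with 1 library left out. IRS1 stays between 0.68 and 0.80, IGF1R and IGF2R fall on either side of 0, and IGFBP2 reached the count limit in 2 of the 4 fits.

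A word of 6 bases, GCAACC, was looked up in the 3′ UTRs because genes called higher in these libraries carried it more often. It was read on the transcript strand of the canonical GENCODE v44 transcripts. The word occurred in the 3′ UTR of 23.4% of 12517 tested genes with an annotated 3′ UTR, in 39.1% of the genes called higher, 19.6% of those called lower and 22.2% of those not called, without regard to 3′ UTR length. IRS1, the called member, had 0 copies in a 3′ UTR of 4960 bases. Of the members not called, IGF1R had 1 copy, IGF2R 2 and IRS2 1, while IGFBP2, IGFBP3, IGFBP6 and IGFBP7 had 0. Among pathway genes called higher (described next), AKT1 and FBXO32 had 1 copy each, GRB10 had 2 and TSC2 had 0. The 3 pathway genes called lower had 0. Of 57 pathway genes not called, 15 (26.3%) carried the word, among them ADAM12 with 3 copies and INSR with 1. The word was chosen with the calls of these libraries known, so these shares are no test of it. IGFBP5, too low to be tested, had 3. The copies of the tested members and of AKT1 and GRB10 are shown with their surrounding bases, 5′ to 3′ on the transcript strand in GRCh38, with the word in capitals. The copy of FBXO32 is not shown. The part of the word in any of these values was not tested.
IGF1R, chr15:98961575-98961604, plus strand: ggcattttccatGCAACCtccttctgccag
IGF2R, chr6:160106863-160106892, plus strand: gcttttttttgtGCAACCtgatctaacatg
IGF2R, chr6:160108490-160108519, plus strand: ggagacgcttcaGCAACCagatgggaggtt
IRS2, chr13:109755563-109755592, minus strand: tatgtaactgaaGCAACCtacttttgaaaa
AKT1, chr14:104769881-104769910, minus strand: gtggcaccagatGCAACCtcactatggtat
GRB10, chr7:50592251-50592280, minus strand: ggactcagtcaaGCAACCacagtctgttaa
GRB10, chr7:50590523-50590552, minus strand: aaactccatgtaGCAACCaggacgaagttg

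Around these members, 78 genes of the IGF pathway were listed by role, the members included, and 65 had enough reads to be tested. Of these, 5 were called higher and 3 lower, together 12.3% against the 10.8% of all tested genes, with a median log2 fold change of 0.024. DESeq2 called 5 higher and 4 lower, against 917 and 645 over all tested genes. Besides IRS1, the higher genes were AKT1, FBXO32, TSC2 and GRB10, and the lower genes were GRB14, PTPN1 and HTRA1. For each of these 8 genes, picked by adjusted p, the groups did not overlap. The same held for 36 of the 65 tested pathway genes and for 54.3% of all tested genes.

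**Figure D4:**
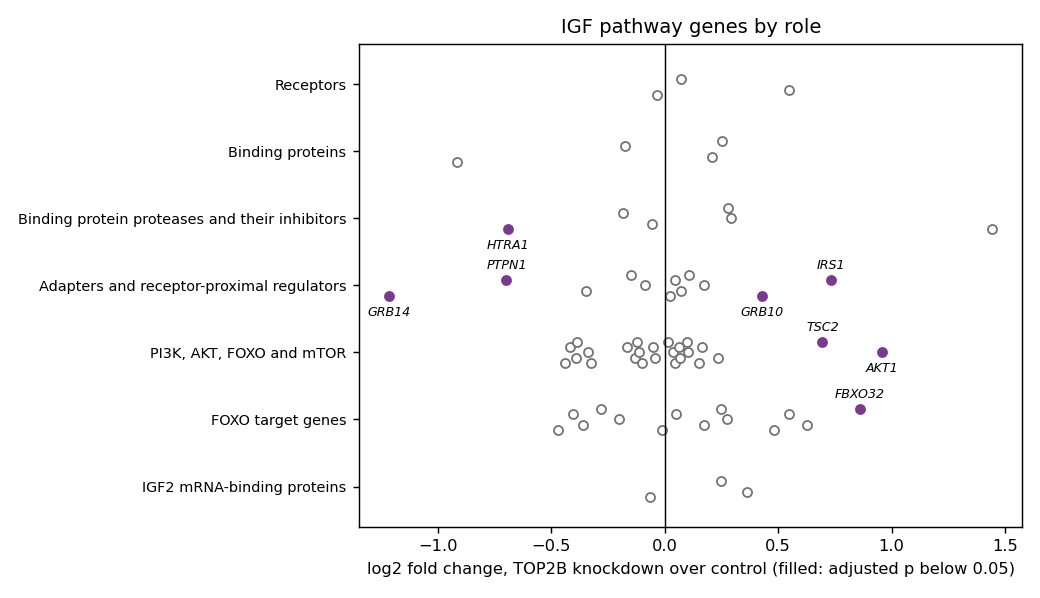
Log2 fold change of TOP2B knockdown over control for the tested genes of 7 role lists, 1 point per gene, filled and named where the adjusted p is below 0.05. The named points are AKT1, FBXO32, IRS1, TSC2 and GRB10 to the right of 0 and GRB14, PTPN1 and HTRA1 to the left, and a gene on more than 1 list is drawn on each.

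The list of adapters and regulators that act at the receptor held 4 of these 8 calls, among 12 tested genes. This was 33.3%, against 10.8% of all tested genes. The share was 16.7% for the proteases and their inhibitors, 8% for PI3K, AKT, FOXO and mTOR genes and 7.14% for FOXO targets. It was 0 for receptors, binding proteins and IGF2 mRNA-binding proteins. Whether calls gather in any list was not tested. GRB10, an adapter that binds IGF1R and INSR and restrains their signal, had 81.4 and 83.3 CPM in control and 113.3 and 108.3 CPM in knockdown libraries. GRB14, its relative with the same role at INSR, had 65 and 74 counts in control and 30 and 23 counts in knockdown libraries. The related inhibitory adapters thus moved in opposite directions, by 0.43 (adjusted p = 0.0416) and -1.21 (adjusted p = 0.0240) on the log2 scale by edgeR. In the 4 fits without 1 library, the log2 fold change of GRB10 stayed between 0.40 and 0.47 and its adjusted p was 0.117 to 0.212, past the threshold in none. That of GRB14 stayed between -1.38 and -1.06, and it was not called without control replicate 2 (adjusted p = 0.0769), without knockdown replicate 2 (adjusted p = 0.0788) or by DESeq2 (adjusted p = 0.0556). PTPN1, the phosphatase that removes phosphate from INSR and IGF1R, had 188.5 and 213.3 CPM in control and 117.5 and 130.4 CPM in knockdown libraries. It fell by 0.70 on the log2 scale (standard error 0.13, adjusted p = 0.00984, edgeR), and without knockdown replicate 1 by 0.62 with an adjusted p of 0.0573. In this list IRS1 was the call that held in every fit without 1 library.

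In the list of PI3K, AKT, FOXO and mTOR genes, 2 of 25 tested genes were called, both higher, while DESeq2 called 2 higher and 2 lower. At an unadjusted p below 0.05 in edgeR, 2 of the 25 were higher and 5 lower. Over all 15356 tested genes, 2228 were higher and 1812 lower at that limit, and DESeq2 called 917 higher and 645 lower. AKT1, the kinase activated downstream of PI3K, had 82.4 and 85.3 CPM in control and 155.0 and 170.3 CPM in knockdown libraries. It was 1.94-fold higher (log2 fold change 0.96, standard error 0.12, adjusted p = 0.00175, edgeR), the largest rise of the pathway genes called. The related kinase gene AKT2 was not called, with a log2 fold change of 0.067 (adjusted p = 0.782, edgeR). TSC2, which with TSC1 restrains mTOR through RHEB, rose by 0.69 (standard error 0.12, adjusted p = 0.00728, edgeR), from 94.5 and 83.7 CPM to 143.0 and 145.4 CPM. TSC1 was not called and had the opposite sign, at -0.44 (adjusted p = 0.0783, edgeR). Of the exon bases of AKT1 and TSC2, 6.05% and 3.82% are shared with other annotated genes.

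Of 14 tested FOXO target genes, 1 was called, the ubiquitin ligase gene FBXO32, which rose by 0.86 (standard error 0.13, adjusted p = 0.00397, edgeR), from 81.0 and 72.2 CPM to 127.4 and 150.7 CPM. The other 13, with IRS2 and INSR among them, were not called, and the list median was 0.11. Of the 6 proteases that cut binding proteins and their inhibitors, 1 was called. HTRA1, a secreted serine protease, had 173.9 and 119.5 CPM in control and 102.4 and 79.7 CPM in knockdown libraries, a fall by 0.69 on the log2 scale (adjusted p = 0.0438, edgeR). The call was lost without control replicate 1 (-0.39, adjusted p = 0.193) and without knockdown replicate 2 (-0.51, adjusted p = 0.117). STC2, the inhibitor of PAPPA that was the most abundant transcript of the list, stood at 2555 and 1876 CPM in control and 2207 and 1690 CPM in knockdown libraries, and these overlapped. None of the 3 receptors tested and none of the 3 genes of IGF2 mRNA-binding proteins was called by edgeR or DESeq2. In either list 1 had an unadjusted p below 0.05 in edgeR, as had 2228 higher and 1812 lower genes of all 15356 tested.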

How the data were processed

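RNA-seq counts were used for 2 control and 2 TOP2B knockdown libraries, described in the study as independent biological replicates. The authors checked single-end reads of 65 bp with FastQC 0.11.6, aligned them to GRCh38 with STAR 2.5.4a and deposited raw counts per gene (Gencode v24), without normalization. Whether strand was used in counting is not given in the sources used here, although column names call the reads stranded and paired. A second, identical copy of each of the 4 columns was not used. From the GENCODE v44 annotation, 56558 of 60725 IDs received a symbol, and positions, exon lengths and 3′ UTRs were taken. Genes that reached 10 counts in 2 or more libraries were tested with edgeR 4.0.16 (TMM, glmQLFit and glmQLFTest, condition as the only term) in R 4.3.3, with Benjamini-Hochberg adjustment over all tested genes. Standard errors were derived from the test, as the absolute log2 fold change divided by the square root of its F statistic. Intervals built from them are at 95% and cover the spread of these libraries and counting error. In this fit the spread of each gene is drawn toward that of the other tested genes (9.90 degrees of freedom). The intervals therefore do not rest on the 2 libraries per group of that gene alone. In fits without 1 library, the lone library of a group was assumed to vary like the other group. The other alternatives were DESeq2 1.42.0, its size factors in edgeR, library size alone, no filter, a mean of at least 100 counts, and the replicate number as a block. The scripts were tested on simulated data.

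Named were TOP2B, the 10 members, IGF1, IGF2, INSR and IGFBP1, each pathway gene called, and the nearest tested protein-coding gene on each side of a called member; other genes were named after their values were seen. The members, the pathway lists and the word GCAACC were chosen with earlier results of these data known.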

Additional observations from a re-analysis of the deposited data

How the results depend on the processing

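IRS1 kept its direction and its side of the threshold under all 10 alternatives, and no member was newly called except under the replicate block. Labels give both groups the replicate numbers 1 and 2. The difference between replicates 1 and 2 correlated between the groups across genes (Pearson's r = 0.479 over 15356 genes, which are not independent replicates), but with 2 pairs the numbers are not shown to pair the libraries. With the replicate block, 3440 genes were higher and 3346 lower, 3 members were higher and 1 lower, and 19 pathway genes were higher and 18 lower. The members called only there were IGFBP3 (0.21), IGFBP7 (0.26) and IGFBP6 (-0.17). INSR was also called there (0.55, adjusted p = 0.00028, edgeR). Without a filter, 985 genes were lower against 642, and at a mean of at least 100 counts 1 pathway gene was lower against 3, since GRB14 was removed by the filter and HTRA1 lost its call. Without 1 library, between 708 and 1003 genes were higher and between 452 and 535 lower, 1 member was higher and 0 lower, 4 to 6 pathway genes were higher and 1 to 3 lower, the 1 being the value without knockdown replicate 2. Over these fits the log2 fold changes ranged from -1.09 to -0.75 for IGFBP2, 0.16 to 0.26 for IGFBP3, -0.23 to -0.11 for IGFBP6, 0.088 to 0.45 for IGFBP7, -0.25 to 0.22 for IGF1R, -0.059 to 0.20 for IGF2R, 0.68 to 0.80 for IRS1 and 0.10 to 0.25 for IRS2. IGF1R turned positive without control replicate 1 (0.22) and without knockdown replicate 2 (0.15), and IGF2R negative without knockdown replicate 1 (-0.059). The cause of these shifts was not tested. IGFBP2 had no fit at the 100-count limit or without either control library, as it fell under the filter, and DESeq2 gave it no adjusted p. At 2 libraries per group, a member that did not pass may still differ by an amount within its interval.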

Other observations

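The nearest tested protein-coding genes on either side of IRS1 on chromosome 2 were DOCK10, a guanine nucleotide exchange factor 1689 kb away, and RHBDD1, a rhomboid protease gene 35.8 kb away. DOCK10 had 59.8 and 50.0 CPM in control and 65.0 and 57.0 CPM in knockdown libraries, and RHBDD1 had 23.97 and 22.1 CPM in control and 20.7 and 20.5 CPM in knockdown libraries. Neither was called, with log2 fold changes of 0.15 (adjusted p = 0.525, edgeR) and -0.16 (adjusted p = 0.488, edgeR).

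PAPPA2, a protease that cuts IGFBP5 and was picked out here after its values were seen, had 11 and 3 counts in control and 17 and 17 counts in knockdown libraries. Its log2 fold change of 1.44 (standard error 0.54) did not pass (adjusted p = 0.123, edgeR).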
